A study of Arabidopsis thaliana with 6 samples.

Results

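The 8 Arabidopsis thaliana genes described here encode clade A type 2C protein phosphatases, the phosphatases that hold abscisate signalling in check. They were taken by their locus identifiers, 8 of 38189 genes in the count tables, and are HAI1, HAI2, HAI3, ABI1, ABI2, HAB1, HAB2 and PP2CA. Their transcripts were compared between 3 RNA sequencing libraries of the Columbia wild type (WT, mock treated) and 3 of the hb34 mutant (also Columbia, mock treated). HB34 belongs to the zinc finger homeodomain family of transcription factors, and the series title places it between jasmonate synthesis, immunity and growth. All plants were 10 days old and had grown on half-strength Murashige and Skoog medium in long days of 16 h light at 22 °C. The labels name leaves as the tissue while the extraction protocol names seedlings, and the kind of hb34 allele and the number of plants pooled in a library are not stated by the labels. Values are CPM, read counts divided by the TMM-scaled size of their library, and every log2 fold change is hb34 minus WT.

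Abscisate is the plant hormone of drought, osmotic stress and seed dormancy. Without it, clade A phosphatases keep SnRK2 protein kinases dephosphorylated and inactive. PYR/PYL receptors that have bound the hormone dock onto the phosphatases and block them, and the freed kinases phosphorylate ABF transcription factors and guard cell ion channels. The phosphatase genes are themselves induced by abscisate through ABF binding to elements with an ACGT core, which makes them a negative feedback arm as well as core parts of the pathway. In leaves the pathway is best known for stomatal closure and for switching on dehydration genes such as RD29A.

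The 300 bases before the annotated start are shown for 5 of the 8 genes, because HAI1 was the member that passed the test, HAI2 is its close relative, PP2CA is abundant and abscisate-induced, and ABI1 and ABI2 form a pair that varied together. They were read from the TAIR10.1 genome (RefSeq) on the coding strand, 5′ to 3′. Capitals mark ACGTG or its complement CACGT, the core of the abscisate-responsive element, and TAATTA, which holds the ATTA core that many homeodomains recognise. In PP2CA a TAATTA and an ACGTG overlap by 1 letter.
HAI1 (chr5:23896940-23897239, minus strand): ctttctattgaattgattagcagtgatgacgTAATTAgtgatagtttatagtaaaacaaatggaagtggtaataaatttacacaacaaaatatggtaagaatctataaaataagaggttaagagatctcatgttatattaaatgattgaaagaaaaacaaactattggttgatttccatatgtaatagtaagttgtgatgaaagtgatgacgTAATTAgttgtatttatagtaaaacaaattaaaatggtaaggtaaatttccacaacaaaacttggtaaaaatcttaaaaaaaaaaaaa
HAI2 (chr1:2282829-2283128, minus strand): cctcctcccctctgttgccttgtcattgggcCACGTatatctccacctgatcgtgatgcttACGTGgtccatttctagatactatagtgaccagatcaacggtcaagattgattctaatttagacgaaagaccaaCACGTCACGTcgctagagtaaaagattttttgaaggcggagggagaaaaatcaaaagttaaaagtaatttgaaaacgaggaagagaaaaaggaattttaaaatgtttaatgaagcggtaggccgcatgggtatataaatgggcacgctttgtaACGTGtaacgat
PP2CA (chr3:3585851-3586150, minus strand): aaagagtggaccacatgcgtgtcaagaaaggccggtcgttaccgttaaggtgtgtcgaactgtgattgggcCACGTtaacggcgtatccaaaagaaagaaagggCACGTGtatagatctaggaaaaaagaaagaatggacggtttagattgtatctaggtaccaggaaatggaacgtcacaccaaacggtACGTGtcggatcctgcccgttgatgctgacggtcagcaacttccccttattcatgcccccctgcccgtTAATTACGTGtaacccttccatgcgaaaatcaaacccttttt
ABI1 (chr4:13222377-13222676, minus strand): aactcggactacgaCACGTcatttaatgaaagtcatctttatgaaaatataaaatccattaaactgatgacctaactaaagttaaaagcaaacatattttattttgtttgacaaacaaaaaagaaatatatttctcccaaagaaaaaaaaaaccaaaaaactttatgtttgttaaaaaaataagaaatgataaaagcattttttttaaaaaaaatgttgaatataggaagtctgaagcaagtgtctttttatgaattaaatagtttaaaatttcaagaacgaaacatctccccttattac
ABI2 (chr5:23086822-23087121, plus strand): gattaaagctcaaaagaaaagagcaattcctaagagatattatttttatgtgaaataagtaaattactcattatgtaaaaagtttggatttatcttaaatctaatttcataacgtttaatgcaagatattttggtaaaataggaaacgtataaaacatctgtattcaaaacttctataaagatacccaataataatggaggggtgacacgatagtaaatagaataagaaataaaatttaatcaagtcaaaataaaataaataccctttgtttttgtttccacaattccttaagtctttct

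ACGTG on either strand occurred in 6 of the 8 windows, against 25.6% of the 27443 windows of the same length before nuclear protein-coding genes. HAI2 and PP2CA each held 5 matches, a number reached by 0.55% of all windows, HAI3 and HAB2 held 2, ABI1 and HAB1 held 1, and HAI1 and ABI2 held 0. The longer forms ACGTGGC and ACGTGTC, which contain ACGTG, occurred in 2 and 3 of the 8 windows, against 3.72% and 4.06% of all. CACGTG, the G-box, occurred in PP2CA alone (7.09% of all windows), as did CCGAC, the core of the dehydration-responsive element (13.9%). TTGAC, the core of the W-box that WRKY factors bind, occurred in 6 of 8 (50.4%). TAATTA occurred in HAI1, HAB1 and PP2CA, against 32.7% of all windows. HAI1 held 2 matches, and 8.6% of all windows held 2 or more. Both matches of HAI1 lie inside an 18-base run, agtgatgacgtaattagt, that occurs at 279 and again at 98 bases before the start. Each copy also holds the shorter core acgt, whose last letter is the first of TAATTA. The ABI2 window holds acgt as well, so a lack of ACGTG is not a lack of ACGT. The shorter core was not counted over the windows. In HAI2, ABI1, ABI2, HAB1, HAB2 and PP2CA the longest repeated run was 11 bases or shorter. These matches describe letters in the windows and are not binding sites.

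The libraries held 17562497 to 19670468 counts, and the level that 3 counts stand for ranged from 0.153 to 0.178 CPM, a floor that covers counting error only. HB34 itself had 83.3, 91.7 and 93.0 CPM in WT, compared with 1.02, 2.27 and 1.18 in hb34 (log2 fold change -5.90 with SE 0.254, edgeR adjusted p = 0.000419). Of the marker genes, 5 of 5 leaf markers had enough counts to be tested and summed to at least 64687 CPM, while 8 of 12 root markers and 9 of 10 seed markers had 0 counts in every library, and the summed root markers reached at most 1.90 CPM. One library stood apart. A list of 10 jasmonate and wound response genes summed to 113 to 130 CPM in WT and to 159, 2258 and 527 CPM in hb34 replicates 1, 2 and 3. By edgeR 9 of its 10 genes had an unadjusted p under 0.05 (29.7% of all tested genes did), with 0 past the adjusted threshold. The list holds genes already seen to be high in hb34 replicate 2, so these values describe that library and are not a test of it. Since the labels do not state that replicates are separate cultures of plants, a p-value here reflects the spread among these libraries, which may be technical.

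HAI1 rose in hb34 to 2.26 times its WT mean, and it was the only 1 of the 7 testable phosphatase genes to pass the test. With a threshold of 0.05 on the adjusted p (quasi-likelihood test of edgeR, Benjamini-Hochberg over 17905 genes) 6.27% of all tested genes were called, 3.77% higher and 2.5% lower (675 and 447 genes, or 536 and 615 under upper quartile scaling), so 1 of 7 is close to the background. HAI3 had too few counts to be tested. The other 6 did not pass, and 0 of the 7 fell, a count that was also 0 by DESeq2, by limma-voom and before adjustment of p. Over all genes it tested DESeq2 called 14.64%, and limma-voom called 5.69%. At an unadjusted p under 0.05 there were 2 members, HAI1 and PP2CA, both with positive log2 fold changes (29.7% of all tested genes reached that level). In 2 of the 7, HAI1 and HAB2, the ranges of the groups did not overlap, against 35.3% of all tested genes. The median log2 fold change of the 7 was 0.20, against 0.01 over all tested genes.

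**Figure D1:**
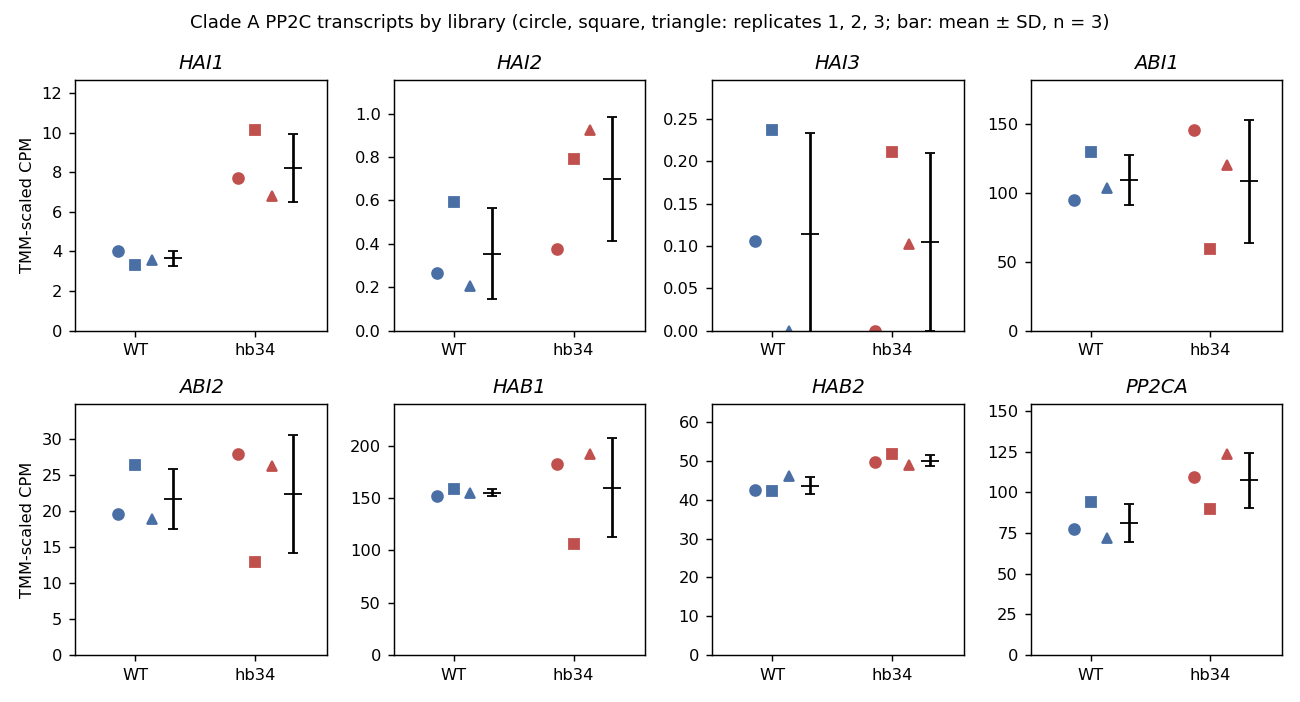
TMM-scaled CPM (y axis, from 0, scaled per gene) of the 8 clade A PP2C genes in 3 WT (blue) and 3 hb34 (red) libraries, with marker shapes for the replicate number and a black bar for the mean ± SD (n = 3). HAI1 lies at 3.32 to 4.03 CPM in WT and 6.79 to 10.1 CPM in hb34, and hb34 replicate 2 (red square) is the lowest library for ABI1, ABI2 and HAB1.

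The HAI genes, named for their strong induction by abscisate, restrain responses to low water potential. HAI1 (gene-AT5G59220, chromosome 5, 23894404 to 23896939, minus strand, 3 exon blocks), also known as SAG113 for its activity in senescing leaves, had 4.03, 3.32 and 3.58 CPM in WT, compared with 7.73, 10.1 and 6.79 in hb34. All 3 hb34 libraries lay above all 3 WT libraries, with the highest value in hb34 replicate 2, a position held by that library in 28.3% of tested genes. The means were 3.64 ± 0.359 CPM in WT, compared with 8.22 ± 1.73 in hb34 (SD, n = 3 each), from 56 to 76 counts per library in WT and 132 to 192 in hb34. The log2 fold change was 1.17 (SE 0.213, edgeR adjusted p = 0.0285). HAI2 (gene-AT1G07430, chromosome 1, 2280746 to 2282828, minus strand), which also restrains seed dormancy, had 0.265, 0.593 and 0.204 CPM in WT, compared with 0.376, 0.792 and 0.925 in hb34. These values rest on 4 to 18 counts per library and the groups overlap (log2 fold change 1.01 with SE 0.58, adjusted p = 0.272). HAI3 (gene-AT2G29380, chromosome 2, 12608675 to 12610350, plus strand) was read by 2, 4 and 0 counts in WT, compared with 0, 4 and 2 in hb34, at or near the floor in all 6 libraries, so a difference was not detectable at this depth. A further phosphatase of the clade, AHG1, which acts mainly in seeds, had 1 count in WT replicate 2 and 0 in the other 5 libraries.

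ABI1 and ABI2, the phosphatases of the classical abscisate-insensitive mutants, and HAB1, their close homologue that also dephosphorylates the kinase OST1, were split within hb34 rather than between genotypes. ABI1 (gene-AT4G26080, chromosome 4, 13219915 to 13222376, minus strand) had 95.1, 129 and 104 CPM in WT, compared with 146, 59.2 and 121 in hb34. Its lowest library was hb34 replicate 2 and its highest hb34 replicate 1, so the WT values lie between those of hb34 (log2 fold change -0.01 with SE 0.303, adjusted p = 0.982). The exons of ABI1 share 22 bases with AT4G26070, a MAP kinase kinase gene on the other strand, so a few reads there could belong to either gene. ABI2 (gene-AT5G57050, chromosome 5, 23087122 to 23089631, plus strand) had 19.6, 26.4 and 18.9 CPM in WT, compared with 27.8, 12.9 and 26.2 in hb34. It too was lowest in hb34 replicate 2 and highest in hb34 replicate 1 (log2 fold change 0.05 with SE 0.29, adjusted p = 0.92). HAB1 (gene-AT1G72770, chromosome 1, 27389948 to 27393327, plus strand) stayed within 152 to 159 CPM in WT and had 182, 106 and 192 CPM in hb34 (log2 fold change 0.04 with SE 0.212, adjusted p = 0.904). In hb34 replicate 2 these 3 genes were below every other library, as were 28.1% of all tested genes, and in hb34 replicates 1 and 3 HAB1 was above every WT library. In that same library the 10 jasmonate and wound genes summed to 2258 CPM, and the part of that response in the phosphatase values was not tested. With hb34 replicate 2 left out, ABI1, ABI2 and HAB1 had log2 fold changes of 0.29, 0.33 and 0.27, with adjusted p of 0.279, 0.254 and 0.147, while 7.47% of all genes passed in that fit.

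HAB2 and PP2CA had positive fold changes, and neither passed. HAB2 (gene-AT1G17550, chromosome 1, 6034270 to 6037398, plus strand), a homologue of HAB1 that likewise binds the receptors, had 42.6, 42.2 and 46.1 CPM in WT, compared with 49.6, 51.7 and 48.9 in hb34. Every hb34 library lay above every WT library, which holds in this direction for 17.8% of tested genes, and the gap was small (log2 fold change 0.20 with SE 0.106, adjusted p = 0.248). PP2CA (gene-AT3G11410, chromosome 3, 3583782 to 3585850, minus strand), also called AHG3, a major brake in germination and in guard cells where it inhibits the anion channel SLAC1, had 77.1, 94.2 and 71.6 CPM in WT, compared with 109, 89.5 and 123 in hb34. Its groups overlap only because hb34 replicate 2 lay below WT replicate 2 (log2 fold change 0.41 with SE 0.16, adjusted p = 0.141). Without hb34 replicate 2 its log2 fold change was 0.52 and its adjusted p was 0.0591.

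HAI1 is set beside its relatives within libraries, by the log2 ratio of its CPM to that of each of the 6 other testable members. HAI1 was already known to pass in these same libraries, and every ratio shares its values. The ratios therefore describe the call and add no separate support for it. The ratio to ABI1 was higher in hb34 by 1.26, to ABI2 by 1.17, to HAB1 by 1.16, to HAB2 by 0.96 and to PP2CA by 0.75. For each of these 5 the 3 hb34 libraries lay above the 3 WT libraries, with p = 0.1 in a two-sided exact permutation test of 3 against 3, the smallest p this design allows, and p = 0.12 when adjusted over the 6 ratios. The ratio to HAI2 differed by 0.12 (exact permutation p = 0.9).

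Per kilobase of exon, so that genes can be set side by side, 3 phosphatases carried most of the family's transcripts. In WT the order of mean CPM per kilobase was HAB1 (55.6 ± 1.20), ABI1 (50.4 ± 8.25), PP2CA (45.0 ± 6.56), HAB2 (16.5 ± 0.821), ABI2 (9.47 ± 1.82), HAI1 (1.75 ± 0.172), HAI2 (0.186 ± 0.110) and HAI3 (0.0765 ± 0.0795; SD, n = 3 each). In that order the ranges of HAB1 and ABI1 overlapped, as did those of ABI1 and PP2CA and those of HAI2 and HAI3, while HAB1 and PP2CA had separate ranges and the steps to HAB2, ABI2, HAI1 and HAI2 were each wider than the ranges. In hb34 PP2CA had the highest mean (59.6 ± 9.43), with overlapping ranges for PP2CA, HAB1 and ABI1, and the order of the other 5 was that of WT. HAI1 made up 0.803% to 1.15% of the summed level of the 8 genes in WT libraries and 1.63%, 3.34% and 1.44% in hb34 replicates 1, 2 and 3. ABI1 made up 26.1% to 30.1% in WT, 29.5% and 24.5% in hb34 replicates 1 and 3, and 18.7% in hb34 replicate 2. HAB1, ABI1 and PP2CA were the 3 largest shares in each of the 6 libraries.

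The HAI1 call depended on the WT libraries. Its log2 fold change ran from 0.99 to 1.29 when each library was left out in turn, with unadjusted p between 0.000668 and 0.00422. Leaving out WT replicates 1, 2 and 3 in turn gave an adjusted p of 0.116, 0.131 and 0.0585, fits in which 3, 4 and 769 genes were called over the whole table. It stayed past the threshold without hb34 replicate 1 (0.0428), 2 (0.023) and 3 (0.0458). With DESeq2 the adjusted p was 0.000552 and with limma-voom 0.0345.

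**Figure D2:**
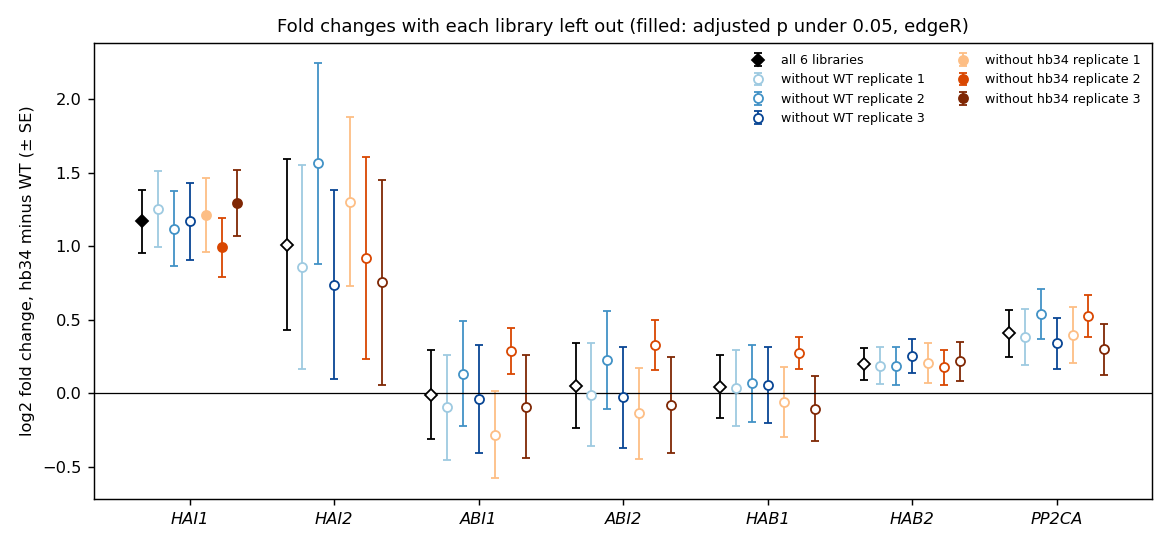
Log2 fold change, hb34 minus WT, with its SE (y axis) for the 7 testable phosphatase genes (x axis), with all 6 libraries (black diamonds) and with each library left out (circles), filled where the edgeR adjusted p was under 0.05. HAI1 keeps values from 0.99 to 1.29 and is filled with all libraries and without each hb34 library, while ABI1 runs from -0.28 to 0.29.

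The rest of the pathway was read from 8 lists with 76 genes, of which 56 could be tested, 3 rose and 4 fell (12.5% called, against 6.27% of all tested genes). Among the PYR/PYL receptors, which bind abscisate and then block the phosphatases, 2 of 8 testable genes fell and 0 rose by edgeR (1 higher before adjustment, p below 0.05; DESeq2 gave 1 higher, limma-voom 0). PYL4 had 99.0, 92.2 and 104 CPM in WT, compared with 59.3, 27.7 and 44.2 in hb34 (log2 fold change -1.17 with SE 0.249, adjusted p = 0.0399). PYL1 had 29.7, 28.9 and 25.9 CPM in WT, compared with 16.9, 17.5 and 19.8 in hb34 (log2 fold change -0.64 with SE 0.131, adjusted p = 0.0366). For both receptors every hb34 library lay below every WT library. Without WT replicates 1, 2 and 3 in turn, in fits that called 3, 4 and 769 genes over the whole table, the adjusted p was 0.154, 0.143 and 0.0776 for PYL4 and 0.16, 0.156 and 0.0527 for PYL1. Without hb34 replicate 3 it was 0.0756 for PYL4 and 0.0611 for PYL1, and without hb34 replicate 1 that of PYL1 was 0.0745. The other 6 testable receptors did not pass, 3 of the 14 had 0 counts in every library, and the list's median log2 fold change was 0.00.

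Summed per kilobase, the 14 receptors had 172, 164 and 171 CPM in WT, compared with 126, 128 and 128 in hb34, with no overlap between the groups. Most of this difference lay in PYL4 alone, with 68.8, 64.1 and 72.3 CPM per kilobase in WT and 41.2, 19.2 and 30.7 in hb34. The sum therefore does not describe a fall across the receptors, of which 4 of 8 testable genes had positive log2 fold changes. The 8 phosphatases summed to 168, 198 and 171 CPM per kilobase in WT and to 228, 146 and 227 in hb34. The ratio of phosphatase to receptor transcripts was thus 0.974, 1.21 and 0.998 in WT and 1.81, 1.13 and 1.78 in hb34 replicates 1, 2 and 3, so that hb34 replicate 2 lay within the WT range. These sums weigh transcripts only, and in bulk tissue fewer cells of a type and less RNA per cell cannot be told apart.

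**Figure D3:**
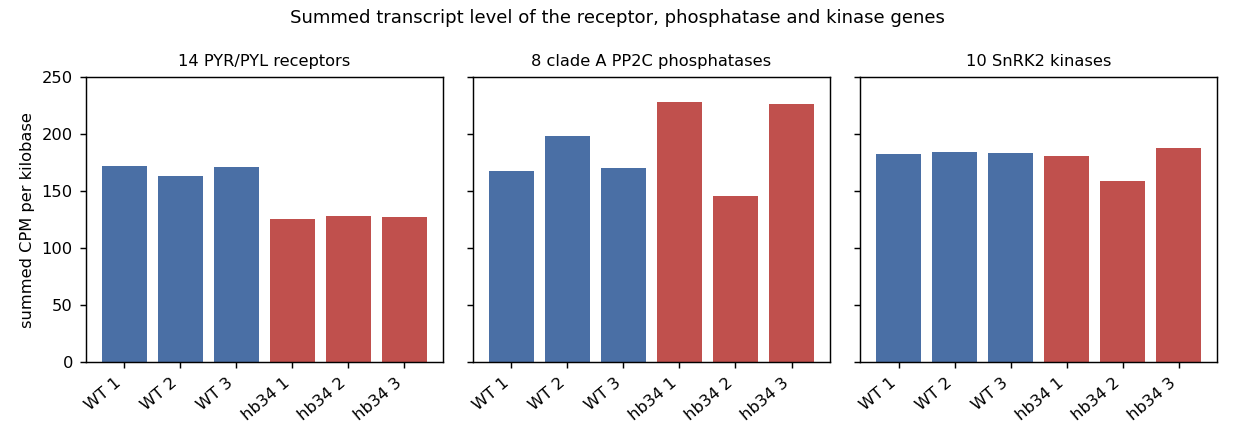
Summed CPM per kilobase (y axis, from 0) of the receptor, phosphatase and kinase genes in each library (x axis; blue WT, red hb34). Receptor sums are 164 to 172 in WT and 126 to 128 in hb34, with most of that difference in PYL4. The phosphatase sum is lowest in hb34 replicate 2 at 146.

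The SnRK2 kinases, a family that includes direct substrates of the phosphatases such as OST1, gave no call. With edgeR, DESeq2 or limma-voom 0 of 8 testable genes passed, and 1 had an unadjusted p under 0.05 by edgeR. The list is the whole family and not its phosphatase substrates alone. SNRK2.5 (1.92 ± 0.375 CPM in WT and 2.94 ± 0.536 in hb34, with SD over 3 libraries) and SNRK2.3 (2.59 ± 0.234 and 3.91 ± 2.15 CPM) had the smallest p, with adjusted p of 0.163 and 0.329. Of the transcription factors ABF1 to ABF4, ABI3, ABI4 and ABI5, 4 could be tested and 0 passed with any of the 3 tools, with 0 at an unadjusted p under 0.05. ABF3, the most abundant of them, had 123 ± 16.8 CPM in WT, compared with 132 ± 22.9 in hb34, and ABF4 had 18.0 ± 2.55 and 20.2 ± 1.55 CPM (SD, n = 3 each).

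In abscisate synthesis 1 of 6 testable genes fell and 0 rose by edgeR (2 higher before adjustment, p below 0.05; DESeq2 gave 2 higher, limma-voom 0). It was ABA4, needed for neoxanthin formation, which had 41.3, 40.2 and 37.2 CPM in WT, compared with 29.4, 26.1 and 28.0 in hb34 (log2 fold change -0.51 with SE 0.115, adjusted p = 0.0463). The ABA4 call was lost without each of the 6 libraries in turn, with adjusted p between 0.0576 and 0.178. Those fits called from 3 to 1356 genes over the whole table. NCED3, which encodes the rate-limiting dioxygenase under stress, had 5.09, 11.7 and 10.7 CPM in WT, compared with 18.7, 97.0 and 22.6 in hb34. All hb34 libraries lay above WT, replicate 2 far above the rest, and the gene did not pass (log2 fold change 2.33 with SE 0.671, adjusted p = 0.0762). AAO3, the aldehyde oxidase of the last step, had a log2 fold change of 0.53 (SE 0.152, adjusted p = 0.0751). Of the 4 CYP707A genes, which encode the hydroxylases that inactivate abscisate, 0 passed (1 at unadjusted p below 0.05; DESeq2 gave 1, limma-voom 0). CYP707A3 had 12.7, 10.0 and 14.2 CPM in WT, compared with 11.4, 121 and 63.3 in hb34 (adjusted p = 0.0797), and CYP707A1 had an adjusted p of 0.183. CYP707A3 and NCED3 were thus both highest in the library with the highest jasmonate and wound sum, whose part in their values was not tested.

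Among 15 testable genes that abscisate or drought induces, 3 rose and 0 fell by edgeR, and 0 fell with DESeq2 or limma-voom. Before adjustment (edgeR p below 0.05) 6 were higher and 1 lower. The list median log2 fold change was 0.64, with 9 positive and 6 negative. It leans in part on 1 library: RD26, COR47 and ERD10 had 57.7, 208 and 369 CPM in hb34 replicate 2. In hb34 replicate 1 they had 3.86, 61.3 and 108 CPM, compared with WT means of 2.77, 79.5 and 144. The 20 listed genes summed to 1014 to 1298 CPM in WT and 1101 to 1561 CPM in hb34, ranges that overlap. RD29A, a dehydration and cold gene, had 24.7, 19.1 and 19.2 CPM in WT, compared with 40.6, 47.4 and 33.5 in hb34 (log2 fold change 0.95 with SE 0.175, adjusted p = 0.0296). AFP3 and AFP1 encode proteins that bind ABI5 and dampen its action, another negative arm of the pathway. AFP3 had 3.39, 3.97 and 5.06 CPM in WT, compared with 11.9, 9.13 and 12.3 in hb34 (log2 fold change 1.42 with SE 0.213, adjusted p = 0.0175), and AFP1 had 6.56 ± 0.999 and 12.2 ± 1.64 CPM (SD over 3 libraries; log2 fold change 0.90, adjusted p = 0.0366). In RD29A, AFP3 and AFP1 the groups did not overlap. Without WT replicates 1, 2 and 3 in turn the adjusted p was 0.0908, 0.14 and 0.0614 for RD29A, 0.0988, 0.0987 and 0.038 for AFP3, and 0.128, 0.139 and 0.0667 for AFP1. Over the whole table these fits called 3, 4 and 769 genes. AFP1 also lost its call without hb34 replicate 1 (0.0574) and without hb34 replicate 3 (0.0756). RAB18, a dehydrin gene often used as an abscisate marker, had 6.55 ± 1.38 CPM in WT, compared with 5.79 ± 1.95 in hb34 (SD over 3 libraries; adjusted p = 0.697), and RD29B had at most 3 counts in any library.

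Among 5 genes listed as regulators of the phosphatase proteins, 1 fell and 0 rose by edgeR, with 0 higher before adjustment (p below 0.05). DESeq2 gave 1 lower and 0 higher, and limma-voom 0 in either direction. The gene that fell by edgeR was AT5G22090, a FAF-like protein gene in RefSeq. It had 206, 221 and 222 CPM in WT, compared with 158, 172 and 151 in hb34 (log2 fold change -0.43 with SE 0.102, adjusted p = 0.0497). The gene lay just inside the threshold and kept its call without hb34 replicate 2 (adjusted p = 0.0344) but lost it without any 1 of the other 5, with adjusted p up to 0.181. Those 5 fits called from 3 to 888 genes over the whole table. The call was also lost with DESeq2 size factors, library size only, no filter on low counts, legacy dispersion and a replicate block. PUB12, one of the ubiquitin ligases that target ABI1, had 2.60 ± 0.788 CPM in WT, compared with 5.13 ± 2.92 in hb34 (SD over 3 libraries; adjusted p = 0.177). Of 6 ion channel genes that act in guard cells or are controlled by these phosphatases and kinases, 0 passed with edgeR. DESeq2 gave 1 higher and limma-voom 0. Before adjustment 3 were higher and 0 lower at an edgeR p under 0.05, against 29.7% of all tested genes in either direction. SLAH3, an anion channel gene, had 13.5, 13.2 and 18.0 CPM in WT, compared with 20.2, 54.8 and 18.9 in hb34 (adjusted p = 0.138), and KAT1, a potassium channel gene, had 30.4 ± 5.72 and 40.3 ± 2.93 CPM (SD over 3 libraries; adjusted p = 0.141). The 6 guard cell markers summed to 56.2 to 71.9 CPM in WT and 62.8 to 70.2 CPM in hb34, ranges that overlap. KAT1 is one of the 6 and the most abundant, and the other 5 had negative log2 fold changes, so that the list median was -0.42. Of the 6, 0 passed with edgeR or limma-voom, and 1, SCAP1, was lower with DESeq2. Before adjustment 1 was higher and 2 were lower at an edgeR p under 0.05, a level that 29.7% of all tested genes reached. SCAP1, a guard cell transcription factor gene, had 3.45, 3.91 and 4.04 CPM in WT, compared with 2.15, 1.37 and 2.47 in hb34 (log2 fold change -0.92 with SE 0.258, adjusted p = 0.0708), with no overlap between the groups. FAMA, which drives the last step of guard cell formation, had 12.8 ± 2.83 and 8.84 ± 1.68 CPM (SD over 3 libraries; adjusted p = 0.149). The part of guard cell content in the phosphatase and channel values was not tested.

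**Figure D4:**
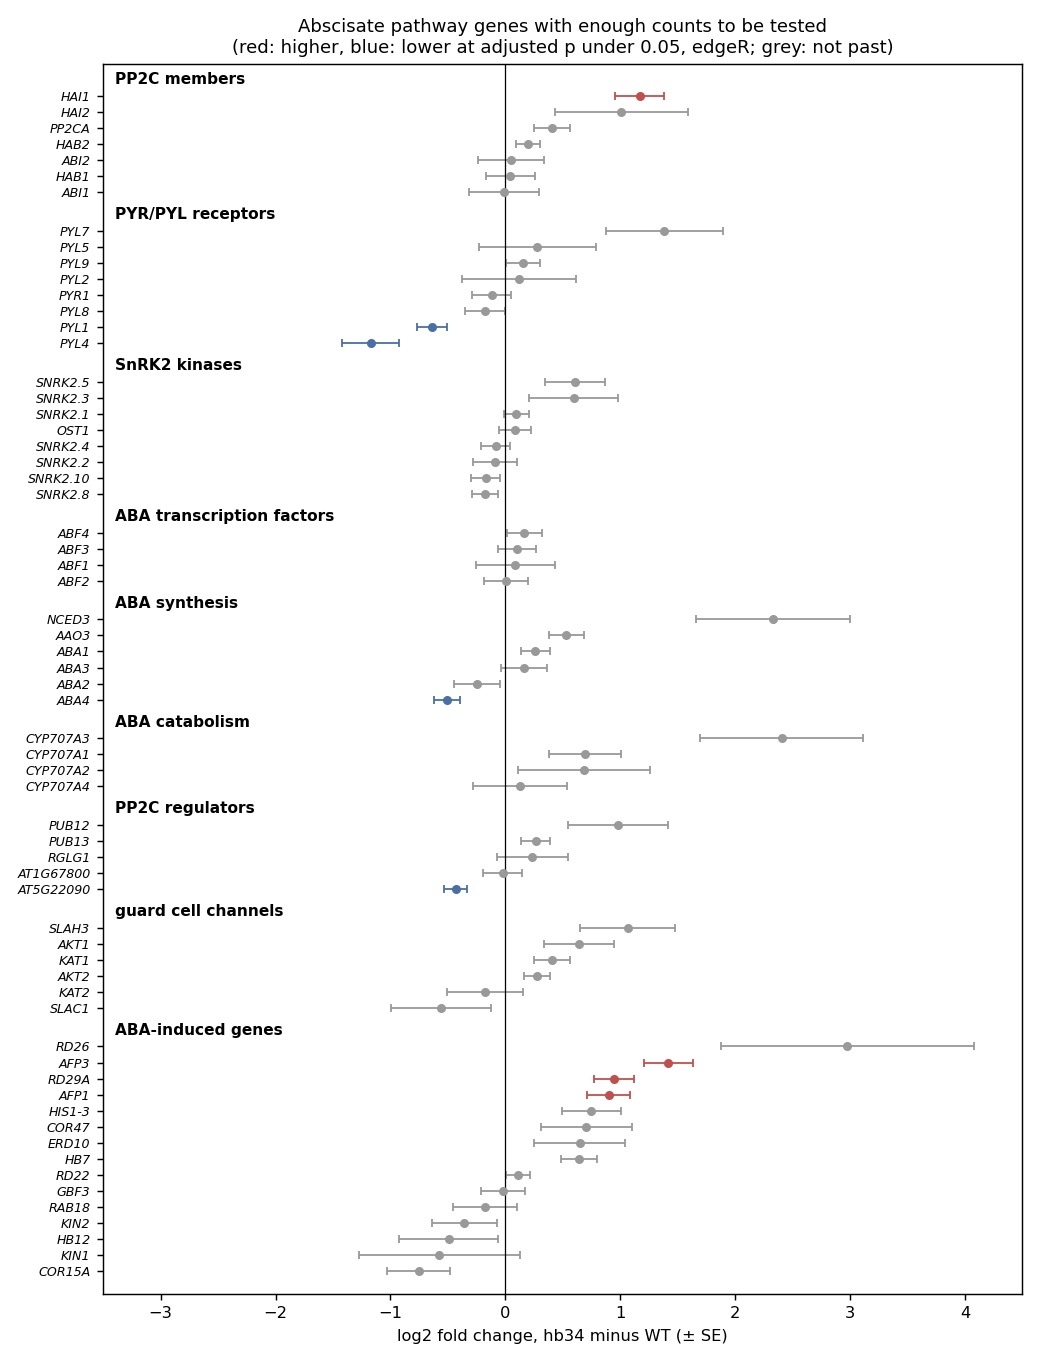
Log2 fold change, hb34 minus WT, with its SE (x axis) for each testable gene of the phosphatase family and of the 8 pathway lists (y axis), coloured where the edgeR adjusted p was under 0.05. HAI1, AFP3, RD29A and AFP1 are higher, PYL4, PYL1, ABA4 and AT5G22090 are lower, and the kinases and ABF genes have no call.

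Likeness of profiles over the 6 libraries is given as Pearson r of log2 CPM, as a description, since all genes share the same libraries and genotypes. ABI1 and ABI2 followed each other (r = 0.976), and HAB1 was nearest to ABI2 (r = 0.927). The pathway gene most like ABI1, ABI2 and HAB1 was AT1G67800 in each case (r = 0.969, 0.987 and 0.916). HAI1 was most like RD29A among the pathway genes (r = 0.989), HAB2 most like AKT2, a potassium channel gene (r = 0.974), PP2CA most like HB7, a homeobox gene under abscisate control (r = 0.888), and HAI2 most like the dehydrin gene ERD10 (r = 0.743). Among 17904 tested genes the closest profile was that of AT5G04895, an RNA helicase gene named ABO6 for abscisate oversensitivity, for HAI1 (r = 0.999). It was that of UMAMIT28, a transporter gene, for ABI1 (r = 0.996), of NF-YA1, a CCAAT-binding subunit gene, for ABI2 (r = 0.993) and of MYR2 for HAB1 (r = 0.99). For HAB2 it was UPL6, a ubiquitin ligase gene (r = 0.999), for PP2CA AT1G02370 (r = 0.991) and for HAI2 AT2G36220 (r = 0.983). Each of these is the highest r in a search of 17904 genes over only 6 libraries. Even HAI2, with 4 to 18 counts per library, reached 0.983, so an r this high does not single out a partner gene.

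Beside the 8 genes, RefSeq products name a type 2C phosphatase for 63 others, among them AHG1, which had too few counts to be tested, and of these 52 could be tested. With edgeR 2 of the 52 rose and 0 fell, where 3.77% of all tested genes rose and 2.5% fell, so 2 of 52 is close to the background. DESeq2 gave 3 higher and 1 lower, and limma-voom 2 and 0. Before adjustment 11 had an edgeR p under 0.05, 5 of them lower, against 29.7% of all tested genes. The median log2 fold change of the 52 was -0.04. AT3G05640 had 4.61, 6.64 and 5.11 CPM in WT, compared with 12.0, 18.5 and 12.8 in hb34 (log2 fold change 1.41 with SE 0.233, adjusted p = 0.0213), all hb34 libraries above WT. AT4G33500 had 64.4, 50.8 and 61.9 CPM in WT, compared with 92.7, 79.4 and 90.4 in hb34 (log2 fold change 0.57 with SE 0.132, adjusted p = 0.0484). Without WT replicates 1, 2 and 3 in turn the adjusted p was 0.118, 0.0876 and 0.0537 for AT3G05640 and 0.136, 0.169 and 0.0708 for AT4G33500, which also lost its call without hb34 replicate 1 (0.0897) and 3 (0.0916). The 3 fits that left out a WT library called 3, 4 and 769 genes over the whole table. The 2 of 52 called here and the 1 of 7 among the 8 genes are both small counts, and the difference between them was not tested.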

How the data were processed

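RNA of 10-day-old Arabidopsis was sequenced as paired reads in 6 libraries, per the labels' protocols. The authors deposited 1 table of raw gene counts per library, whole numbers that were not normalized. The submitters' processing notes list HISAT2 2.1.0, DESeq2 1.30.1 and TAIR10 but give them no roles. How reads were counted, by strand or when they match several genes, is not stated, so reads shared by relatives or by overlapping genes are uncertain. Of the named genes, ABF4, AAO3, SNRK2.5 and AT5G22090 share 754, 749, 382 and 216 exon bases with another gene, more than the 22 of ABI1. The exons of 38187 of 38189 genes fell within the gene of the same locus in RefSeq's TAIR10.1, the build of all coordinates, which count from 1.

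A gene was tested if it passed filterByExpr (minimum count 10, minimum total 15). Library sizes were TMM-scaled, and edgeR 4.0.16 (R 4.3.3) fitted genotype alone by quasi-likelihood (glmQLFit, legacy FALSE), two-sided, with p adjusted over 17905 genes and a threshold of 0.05. The SE is the size of the unshrunk coefficient over the square root of F. Levels per kilobase use the exon lengths in the tables, and log2 CPM a prior count of 2. In a simulation of hb34 against WT 17731 genes were tested, of which 17536 were left unchanged. The share of changed genes called was 3.03% at 1.5-fold, 21.21% at 2-fold and 85.71% at 4-fold, from 66, 66 and 63 changed genes. Of the unchanged genes 10 were called. The number of changed genes was a chosen setting and was not taken from the data, and these shares depend on it.

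The members, the pathway and marker lists and the tests were chosen with earlier results of these data known, and the jasmonate and wound list holds genes already seen to be high in hb34 replicate 2. Named were all members, from each list the 2 genes with the smallest p and every gene past the threshold, the most similar profiles, and type 2C phosphatase genes past the threshold. RAB18, RD29B, RD26, COR47, SCAP1 and FAMA, and the CPM of ERD10, were added after their values were seen. Alternatives were other scalings, filters, dispersions and tools (DESeq2 1.42.0, limma 3.58.1), nuclear genes only, a replicate block and leaving out each library. No sets were tested.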

Additional observations from a re-analysis of the deposited data

How the results depend on the processing

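Of 8 clade A genes, 1 rose in each of the 10 alternative scalings, filters, dispersions, tools and gene sets, and 0 did with a replicate block; leaving out 1 library gave 0 to 1. The number that fell was 0 throughout. Of the pathway genes, 3 rose and 4 fell. With DESeq2 9 rose, in a fit that called 14.64% of all its tested genes, against 6.27% in the main fit (2661 against 1122 genes). With upper quartile scaling 2 rose, and leaving out 1 library gave 0 to 6 that rose and 0 to 4 that fell. With library size only, and without a filter on low counts, 2 fell, and with a replicate block 0 rose and 0 fell.

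Same-numbered libraries of both genotypes did not deviate together (correlations of -0.0972, -0.115 and -0.263), so the replicate numbers are not treated as pairs; the replicate block cut the calls over all genes from 1122 to 5 and took HAI1 to an adjusted p of 0.114. The direction of 3 genes near zero was not stable. ABI1 had a log2 fold change of 0.018 with library size only, ABI2 -0.026 with upper quartile scaling and -0.0090 with limma-voom, and HAB1 -0.033 with upper quartile scaling, -0.0041 with limma-voom and -0.0016 with a replicate block. Leaving out 1 library gave -0.28 to 0.29 for ABI1, -0.14 to 0.33 for ABI2 and -0.11 to 0.27 for HAB1. Upper quartile scaling moved the median log2 fold change of all genes from 0.01 to -0.08 and the calls from 675 higher and 447 lower to 536 and 615. HAI2 was not tested at a CPM of at least 1 in 3 libraries. HAI2, HAI3 and AHG1 are limited by counts near the floor of 3.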
